A study of Mus musculus with 10 samples.

Results

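The 7 genes described here encode the core of MHC class II antigen presentation, and they were measured by RNA-seq in the interscapular brown fat (iBAT) of control mice and of mice that lack the cardiolipin synthase Crls1 in adipocytes. They are the rows of the expression table whose symbol is H2-Aa, H2-Ab1, H2-Eb1, H2-DMa, H2-DMb1, Cd74 or Ciita, 7 of 15075 genes in all, and they were picked by name and function. AdCKO mice (n = 5, labelled KO) carried Adipoq-Cre, which is active in adipocytes, and a Crls1 gene with loxP sites around exon 4. Control mice (n = 5, labelled WT) were homozygous for the same floxed Crls1 gene and had no Cre, so no mouse with Cre alone was measured. All 10 mice were C57BL/6, 20 weeks old and kept at room temperature, and each gave 1 library. Values are normalized reads per kb of counted exon, which allows levels of different genes to be compared per length. P-values measure the spread between these mice.

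MHC class II molecules display peptides from endocytosed proteins to CD4+ T cells. An alpha and a beta chain pair in the endoplasmic reticulum with the invariant chain Cd74, which blocks the groove and directs the complex to endosomes, where cathepsins trim Cd74 and H2-DM exchanges the remaining fragment for peptide. B cells, dendritic cells and many macrophages make these molecules constitutively, many other cells make them after interferon gamma, and the coactivator Ciita turns the genes on through shared promoter boxes called X, X2 and Y, bound by RFX, CREB and NF-Y. In adipose tissue, macrophages and dendritic cells are the main professional presenters, and they are not the adipocytes in which Adipoq-Cre acts.

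The promoters of 3 members are shown because they carry the boxes through which class II genes share control. They are RefSeq sequences on GRCm38.p6, each the 140 bases before an annotated start, read 5′ to 3′ on the strand of the gene. H2-DMb1 is at chr17:34153051-34153190 (+ strand), H2-Aa at chr17:34287824-34287963 (- strand) and H2-Eb1 at chr17:34305727-34305866 (+ strand). Capitals mark matches to X (AGNNACNGATG), X2 (TGACGTCA) or Y (ATTGG) on either strand, and X2 reads the same on both.
H2-DMb1: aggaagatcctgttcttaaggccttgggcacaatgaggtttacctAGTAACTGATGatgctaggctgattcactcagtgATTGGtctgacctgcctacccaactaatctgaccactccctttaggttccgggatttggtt
H2-Eb1: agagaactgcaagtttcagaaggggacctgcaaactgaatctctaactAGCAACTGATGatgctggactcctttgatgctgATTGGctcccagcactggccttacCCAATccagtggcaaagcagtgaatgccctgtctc
H2-Aa: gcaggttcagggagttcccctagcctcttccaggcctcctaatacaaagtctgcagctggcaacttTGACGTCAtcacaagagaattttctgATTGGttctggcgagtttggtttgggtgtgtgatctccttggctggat

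Counting back from the start, H2-DMb1 held X at -95 to -85 and Y at -61 to -57. H2-Eb1 held them at almost the same places, X at -92 to -82 and Y at -59 to -55, and had a further Y in reverse at -35 to -31. H2-Aa had no match to the X letters in the 250 bases searched and held X2 at -74 to -67 and Y at -48 to -44. Of the 4 members with an entry in the promoter table, H2-DMa was the other, and neither of its annotated starts had a match within 140 bases, while over the 250 bases searched it held a Y at -198 to -194. No entry was found for H2-Ab1, Cd74 and Ciita. Over the same 250 bases before the start, among 32851 promoters, 0.816% held X, 33.8% held Y, 1.55% held X2 and 0.292% (96 promoters) held both X and Y. Only 3 promoters had X and Y in the sense direction with starts 33 or 34 bases apart, those of H2-DMb1, H2-Eb1 and H2-Eb2, a spacing read off the members themselves. A match is a description of letters and not a measured binding site.

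The targeted gene differed as labelled, with Crls1 at 813 to 1291 in Control and 193 to 249 in AdCKO. Brown adipocyte markers were present in every library: Ucp1, the uncoupling protein of brown fat, had 24203 to 46570 in Control libraries and 7895 to 18828 in AdCKO libraries. Control replicate 3 had the highest B cell, T cell, dendritic cell, macrophage and pan-leukocyte marker sums of its group. AdCKO replicate 1 had the highest B cell, T cell and pan-leukocyte marker sums of the AdCKO libraries. The summed T cell markers were 70.6 in Control replicate 3 against at most 41.8 in the other Control libraries, and 251 in AdCKO replicate 1 against at most 83.7 in the other AdCKO libraries. Control libraries summed to between 7615403 and 8171138 normalized reads, AdCKO libraries to between 5419800 and 5843024.

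All 7 class II members were higher in AdCKO iBAT, by 2.06- to 3.35-fold in group means. Each was called at an adjusted p under 0.01 by limma, where 25.6% of the 11244 tested genes were called higher and 28.0% lower. For 6 of the 7 the lowest AdCKO library still exceeded the highest Control library, as it did for 24.5% of tested genes. The exception was Ciita, which also passed the minimum level (a mean of 10 in either group) only through AdCKO. It was called with no such minimum as well. The median log2 fold change was 1.75 over the members and -0.01 over all tested genes. In bulk RNA from whole tissue, more cells of a type and more RNA per cell cannot be told apart.

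**Figure D1:**
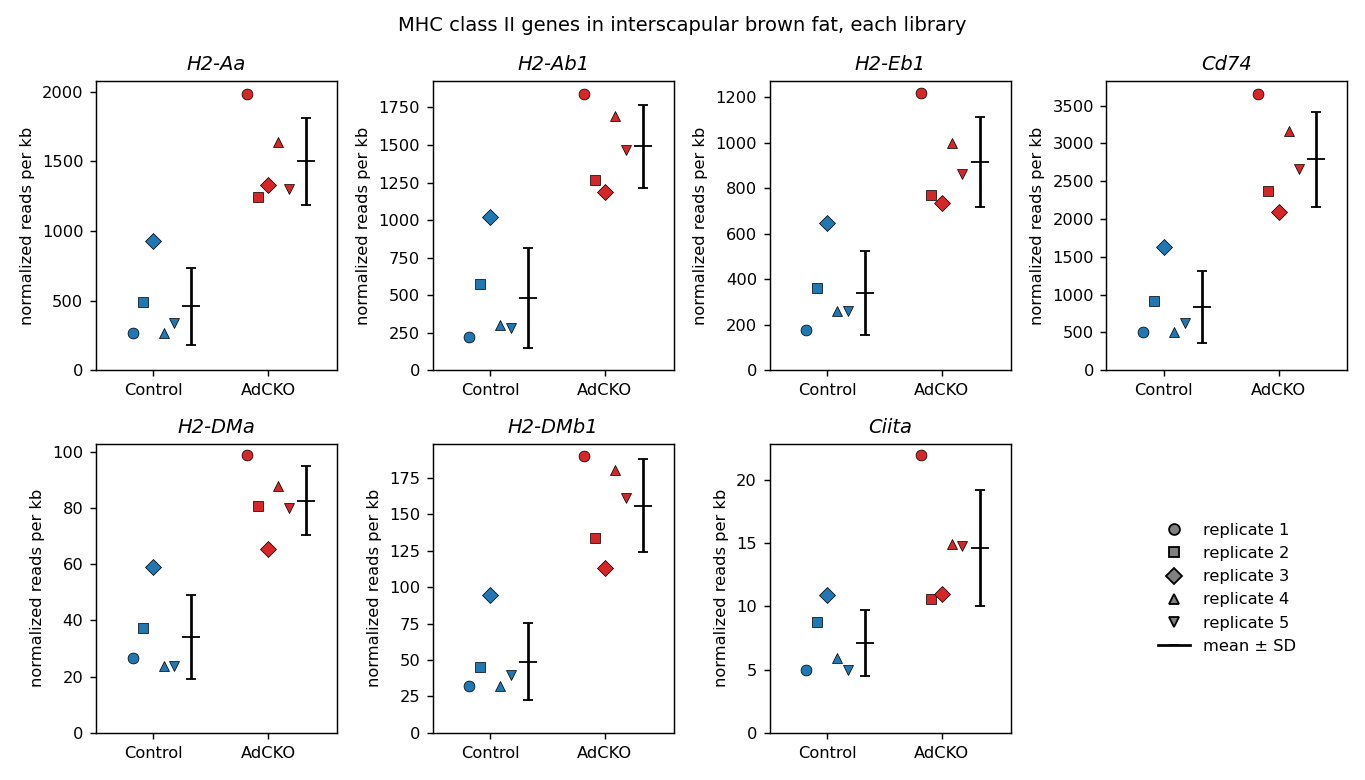
Normalized reads per kb of each class II member in the 5 Control (blue) and 5 AdCKO (red) libraries, with symbols for the replicate number and bars for mean ± SD. AdCKO libraries lie above all Control libraries except for Ciita, and the highest point of each group is Control replicate 3 or AdCKO replicate 1 in every panel.

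The classical chains came first by abundance after Cd74. H2-Aa (NM_010378, mm9 chr17:34419696-34424716, - strand) encodes the alpha chain of the I-A molecule. Its level was 267, 491, 925, 269 and 336 in Control replicates 1 to 5, and 1986, 1242, 1328, 1639 and 1298 in AdCKO replicates 1 to 5. Control replicate 3 stood nearest to AdCKO, yet the groups did not overlap. The mean rose from 457 ± 277 to 1499 ± 313 (SD, n = 5 mice each), or 1.86 on the log2 scale (SE 0.30, adjusted p = 0.000150 by limma).

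H2-Ab1 (NM_207105, mm9 chr17:34400172-34406363, + strand) encodes the beta chain that pairs with H2-Aa. Control libraries had 223, 576, 1021, 302 and 280, and AdCKO libraries had 1841, 1270, 1188, 1693 and 1468. The highest Control library and the lowest AdCKO library, both replicate 3 of their group, were closest to each other across the groups. The mean rose from 481 ± 331 to 1492 ± 276 (SD, n = 5 mice each), or 1.85 on the log2 scale (SE 0.35, adjusted p = 0.000484 by limma).

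H2-Eb1 (NM_010382, mm9 chr17:34442812-34453619, + strand) encodes the beta chain of I-E, whose alpha chain gene H2-Ea is defective in C57BL/6 mice, so its transcript has no classical partner in this strain. It stood at 176, 363, 649, 258 and 260 in Control and at 1219, 771, 734, 1002 and 861 in AdCKO. The order of libraries was close to that of the I-A chains. The mean rose from 341 ± 184 to 917 ± 198 (SD, n = 5 mice each), or 1.54 on the log2 scale (SE 0.28, adjusted p = 0.000422 by limma).

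Cd74, the invariant chain (NM_001042605), was the most abundant member in every library. Its level was 499, 917, 1624, 506 and 622 in Control and 3662, 2372, 2090, 3170 and 2662 in AdCKO. The groups were separate, with Control replicate 3 again the highest of its group. The mean rose from 834 ± 473 to 2791 ± 629 (SD, n = 5 mice each), or 1.87 on the log2 scale (SE 0.29, adjusted p = 0.000123 by limma).

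The subunits of H2-DM, the endosomal editor of class II peptides, were less abundant than the classical chains and also rose. H2-DMa (NM_010386, mm9 chr17:34259777-34276046, + strand) stood at 26.7, 37.2, 59.2, 23.9 and 24.0 in Control and at 98.9, 80.9, 65.3, 87.7 and 80.0 in AdCKO. Its mean rose from 34.2 ± 15.0 to 82.5 ± 12.3 (SD, n = 5 mice each), or 1.32 on the log2 scale (SE 0.22, adjusted p = 0.000201 by limma). The highest Control and lowest AdCKO libraries, both replicate 3 of their group, were close without overlapping.

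H2-DMb1 (NM_010387, mm9 chr17:34290136-34297174, + strand) stood at 32.4, 45.3, 94.7, 32.1 and 40.0 in Control and at 190, 134, 113, 180 and 161 in AdCKO. Its mean rose from 48.9 ± 26.2 to 156 ± 32.0 (SD, n = 5 mice each), or 1.75 on the log2 scale (SE 0.26), with the smallest adjusted p of the members (limma, 8.28e-05). The neighbouring gene H2-DMb2 encodes a close copy. Over 786 coding bases each, 95.9% were identical, and 47.9% of the 50-base windows of H2-DMb1 were found unchanged in H2-DMb2, so the division of reads between them is uncertain. H2-DMb2 was itself higher, at 11.7 ± 2.75 in Control and 23.8 ± 6.00 in AdCKO (SD, n = 5 mice each), with a log2 fold change of 0.96 (limma adjusted p = 0.000375).

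Ciita, the class II coactivator (NM_001243760, mm9 chr16:10480165-10527657, + strand), was the lowest member. It stood at 4.99, 8.76, 10.9, 5.91 and 4.95 in Control and at 22.0, 10.6, 11.0, 14.9 and 14.8 in AdCKO. Control replicate 3 lay above AdCKO replicate 2 and just under AdCKO replicate 3, so the groups overlapped. The mean rose from 7.10 ± 2.64 to 14.6 ± 4.58 (SD, n = 5 mice each), or 0.96 on the log2 scale (SE 0.23, adjusted p = 0.00321 by limma). An exact two-sided permutation test over the 10 libraries gave p = 0.0159 for Ciita and p = 0.0079, the smallest that 5 against 5 allow, for each of the other 6 members. Adding 1 before the logarithm lowers the fold of a gene as low as Ciita. Its log2 fold change was 1.05 with a pseudocount of 0.1 and 0.52 with a pseudocount of 10. Any moderation of the deposited values would lower it too, and its size is unknown. The call for Ciita was lost under 3 alternatives, among them quantile normalization (log2 fold change 0.57, limma adjusted p = 0.0336) and the B and T cell marker level as a covariate (0.61, 0.0300).

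The members varied together from mouse to mouse. Control replicate 3 was the highest Control library for 7 of 7 members and AdCKO replicate 1 the highest AdCKO library for 7 of 7. Their summed level was 1230, 2438, 4384, 1397 and 1567 in Control replicates 1 to 5, and 9018, 5880, 5529, 7786 and 6545 in AdCKO replicates 1 to 5. The spread inside Control was thus wide. Control replicate 3 also had the highest T cell, B cell, dendritic cell, macrophage and pan-leukocyte marker sums of that group. Its macrophage sum was 2394, against at most 1435 in the other Control libraries. What links these sums to the members was not tested. Without Control replicate 3 the log2 fold changes became larger, 2.16 for H2-Aa, 2.18 for H2-Ab1, 2.15 for Cd74 and 1.11 for Ciita. Without AdCKO replicate 1 they were 1.75 for H2-Aa, 1.77 for H2-Ab1, 1.77 for Cd74 and 0.81 for Ciita. The 7 members were called higher in each of the 10 fits that left out 1 library.

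**Figure D2:**
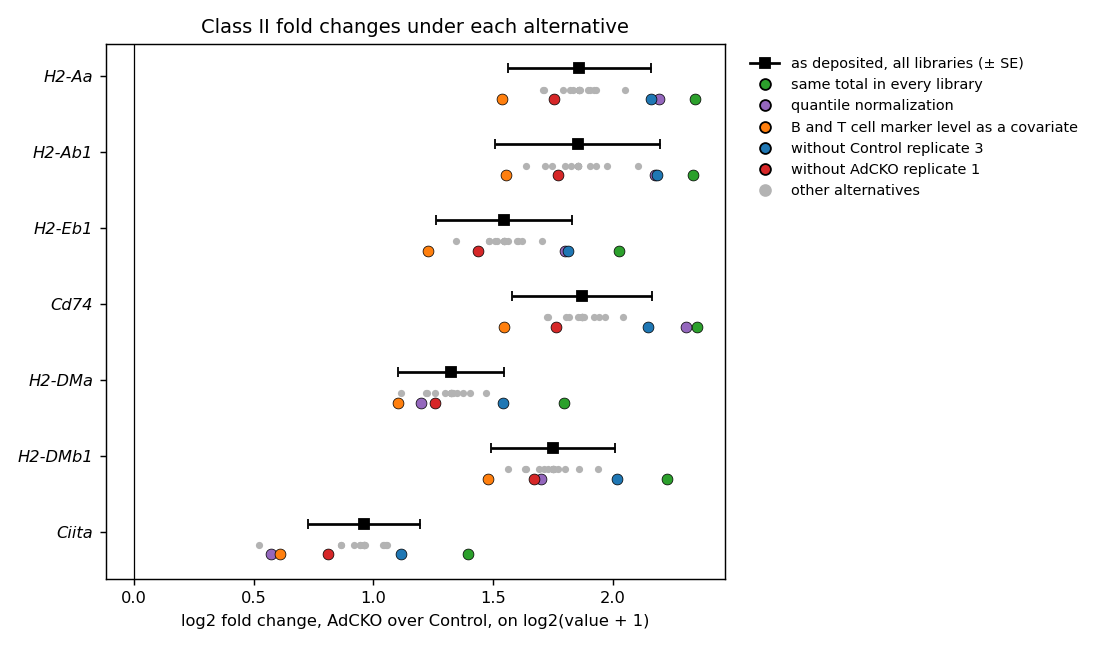
Log2 fold change (AdCKO over Control, on log2(value + 1)) of each class II member with all libraries as deposited (black, ± SE) and under each alternative (points). All points lie above 0, and Ciita is the lowest of the members under every setting drawn.

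Per length, Cd74 stood highest and Ciita lowest in all 10 libraries. The ratio of Cd74 to H2-Ab1 stood at 1.86 ± 0.34 among Control and 1.86 ± 0.09 among AdCKO mice (SD, n = 5 each). H2-Ab1 and H2-Aa, the partner chains of I-A, could not be ordered, with H2-Ab1 higher in 6 of 10 libraries and a ratio of 1.01 ± 0.17 in Control and 1.00 ± 0.09 in AdCKO. H2-Aa exceeded H2-Eb1 in all 10 libraries, by 1.33 ± 0.18 in Control and 1.64 ± 0.11 in AdCKO (exact two-sided permutation test, p = 0.0159, 0.0476 after Benjamini-Hochberg adjustment over 6 ratios). H2-Eb1 exceeded H2-DMb1 in all 10, by 6.97 ± 1.10 and 5.91 ± 0.51 (exact permutation p = 0.0952, adjusted 0.143). H2-DMb1 exceeded H2-DMa in all 10, by 1.41 ± 0.21 in Control and 1.88 ± 0.18 in AdCKO (exact permutation p = 0.0159, adjusted 0.0476). The smallest adjusted p was 0.0476. With 5 libraries against 5 the exact permutation p cannot go under 0.0079. After adjustment over 6 ratios, 1 ratio with fully separate groups could not pass the 0.01 used for genes. That threshold therefore decides nothing for a single ratio.

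Of 36 other genes of the class II pathway, 35 were in the table and 33 passed the minimum level, 6 of them only through AdCKO. Of the 33, 15 were called higher, 1 was called lower and 17 were not called, with a median log2 fold change of 0.36. March1, Cd86, Cd40 and Cd4 among the 15 passed the minimum level only through AdCKO, so their calls are no support. Over all tested genes 25.6% were called higher and 28.0% lower. Scaling every library to the same total raised the median of all genes to 0.46 and the calls to 29 higher and 0 lower, and 5 of the 33 changed sign, so the direction of genes with small changes depends on the scaling.

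Of the endosomal processing genes 4 of 7 were higher, and the largest change of the 33 was among them. Cathepsin S (Ctss), which makes the last cut in Cd74, was 36.6 to 123 in Control (median 47.0) and 1090 to 1600 in AdCKO (median 1359), a log2 fold change of 4.63 (limma adjusted p = 5.21e-08). Legumain (Lgmn), an asparaginyl endopeptidase of the lysosome, went from 191 ± 9.14 to 644 ± 93.0 (SD, n = 5 mice each) and cathepsin L (Ctsl) from 521 ± 27.4 to 1560 ± 298. The thiol reductase Ifi30 also rose, by 1.59 on the log2 scale. The abundant cathepsins Ctsb and Ctsd had log2 fold changes of 0.21 and 0.16 (limma adjusted p = 0.0783 and 0.210).

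Of the promoter factors that hold Ciita on class II genes, 1 of 7 was called. Nfya, a subunit of NF-Y, which binds the Y box printed above, went from 51.6 ± 6.79 to 66.0 ± 3.23 (SD, n = 5 mice each), a log2 fold change of 0.36 (limma adjusted p = 0.00342). Rfx5, Rfxank and Rfxap, the parts of RFX, had log2 fold changes of 0.07, -0.26 and 0.01 (limma adjusted p = 0.569, 0.0245 and 0.959). None of the 3 RFX parts passed the threshold, and Rfxank turned to 0.22 at an equal total in every library (limma adjusted p = 0.0356). The call for Nfya was lost without Control replicate 4 or AdCKO replicate 4, without Control replicate 3 and AdCKO replicate 1 together, under quantile normalization and with the B and T cell covariate (log2 fold changes of 0.27 to 0.37).

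Of 9 genes on the route from interferon gamma to Ciita, 4 were called higher. The transcription factors Spi1 and Irf8 among them are known mainly for their role in myeloid cells. Spi1 was 20.0 to 36.6 in Control and 113 to 195 in AdCKO, a log2 fold change of 2.56 (limma adjusted p = 2.57e-07). Irf8 had a log2 fold change of 1.99, the receptor chain Ifngr2 of 1.01 and the kinase Jak1 of 0.69. Irf1, an interferon-induced factor that binds the Ciita promoter, was 51.3 to 96.0 in Control libraries and 58.3 to 98.9 in AdCKO libraries, a log2 fold change of 0.12 (limma adjusted p = 0.528).

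Among the remaining class II genes, H2-Oa and H2-Ob, which form the DM inhibitor H2-DO of B cells, were not called (limma adjusted p = 0.0398 and 0.0154). H2-Ob stood at 4.38 to 5.02 in Control and at 28.2 in AdCKO replicate 1, with 6.80 to 8.63 in the other AdCKO libraries. H2-Eb2 was under the minimum level. Of 3 genes for turnover at the cell surface, March1, a ubiquitin ligase for class II that passed the minimum only through AdCKO, rose by 1.15 on the log2 scale and Cd83, which opposes it, by 1.81. March8, a related ligase, was the 1 pathway gene called lower, from 126 ± 6.47 to 105 ± 5.46 (SD, n = 5 mice each), and its log2 fold change of -0.26 (limma adjusted p = 0.00279) turned to 0.22 at an equal total in every library (limma adjusted p = 0.00552). Of the genes for costimulation and T cell contact, Cd86, Cd40 and the co-receptor Cd4 passed the minimum level only through AdCKO, so a count of calls among them is no support. Their log2 fold changes were 0.92, 0.87 and 1.48. The call for Cd4 was lost without Control replicate 1, 2, 4 or 5 or AdCKO replicate 4 (1.37 to 1.49), and, among other alternatives, with a robust trend (1.48), with a pseudocount of 10 (0.86), under quantile normalization (1.14) and with the B and T cell covariate (0.77). Cd86 lost its call under quantile normalization (0.54) and the covariate (0.59), and Cd40 under quantile normalization (0.48). Lag3, an inhibitory receptor for class II, had -0.55 (limma adjusted p = 0.0115).

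**Figure D3:**
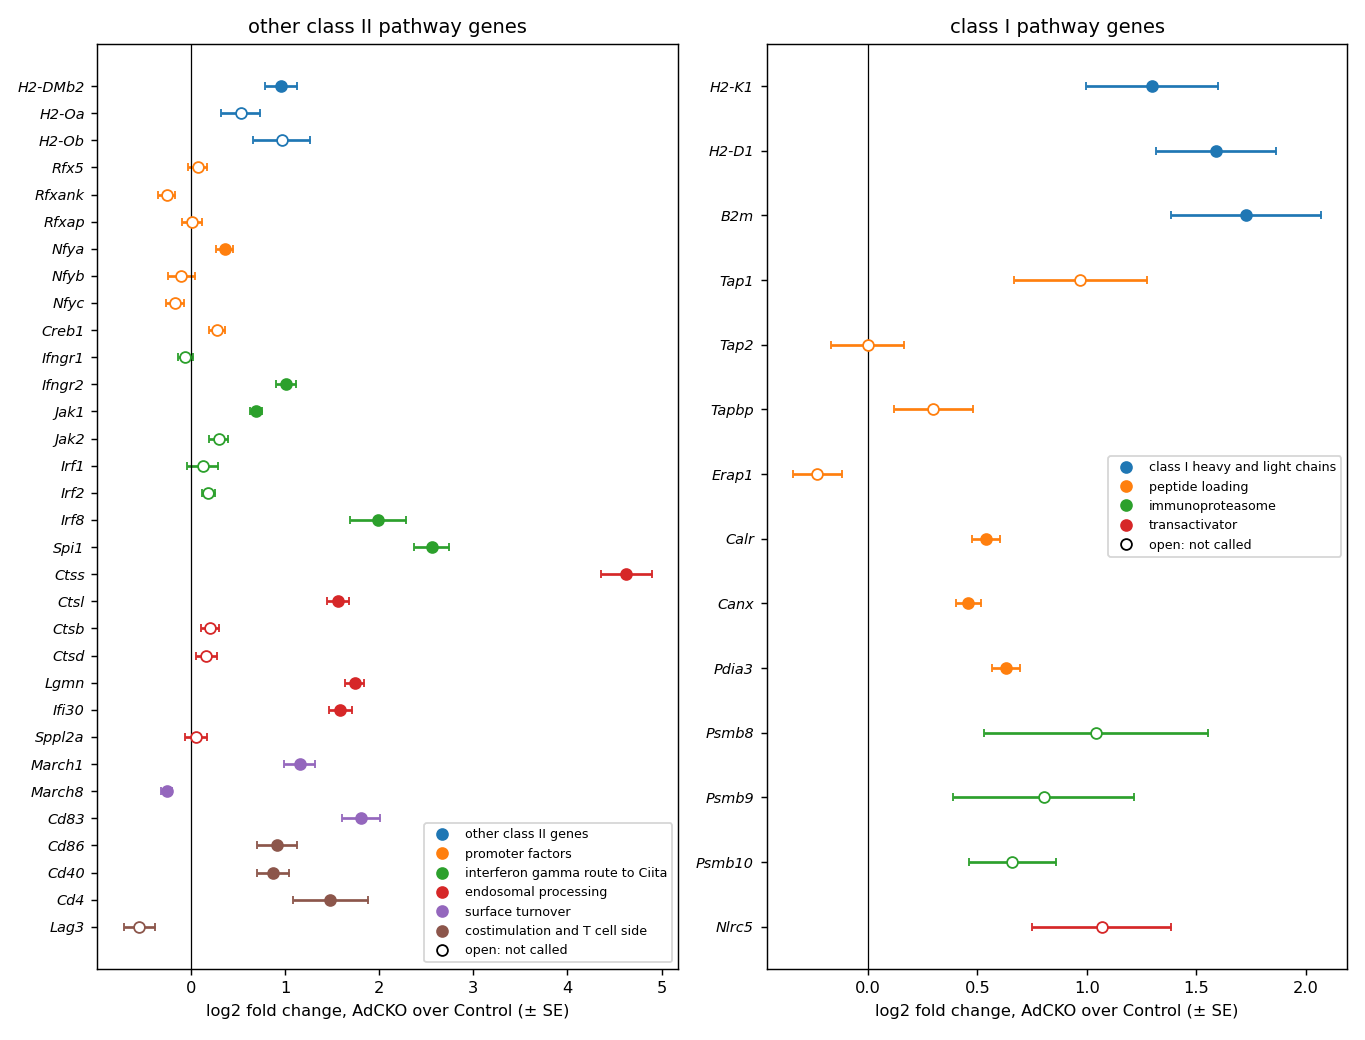
Log2 fold change (AdCKO over Control, on log2(value + 1), ± SE) of the 33 tested class II pathway genes (1 is not drawn) and the 14 class I pathway genes, coloured by role, filled where called by limma at an adjusted p under 0.01. Ctss lies farthest to the right at 4.63, and March8 is the 1 filled point left of 0, which moves to the right of 0 at an equal total in every library.

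The class I pathway presents peptides from inside the cell. Of its 14 genes 6 were called higher and 0 lower by limma, where 25.6% of all tested genes were called higher and 28.0% lower. At an unadjusted limma p under 0.05 there were 9 higher and 0 lower, a share not taken over all genes. The median log2 fold change of the 14 was 0.73. The heavy chain H2-D1 was 1849 to 5839 in Control and 6056 to 9317 in AdCKO, a log2 fold change of 1.59 (limma adjusted p = 0.000256). The endoplasmic reticulum chaperones Calr, Canx and Pdia3, which fold proteins of many kinds, rose by 0.54, 0.46 and 0.63 on the log2 scale. Without Control replicate 3, 12 of the 14 were called higher.

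The genes whose pattern over the 10 libraries was most like that of H2-Aa, H2-Ab1, H2-Eb1 and Cd74 were sought by the root mean square distance of centred log2 values. Of the 5 nearest outside the members, Pld4, a lysosomal exonuclease, was nearest at 0.191. Ctsc, a lysosomal dipeptidyl peptidase, followed at 0.196, Wdfy4, which dendritic cells need to cross-present, at 0.212, H2-D1 at 0.215 and the complement component C2 at 0.215. Of the members outside the 4 that set the profile, H2-DMb1 lay closer than any of these at 0.161, while H2-DMa at 0.303 and Ciita at 0.479 lay farther, behind 26 and 305 other genes. Ctsc stood at 36.6 to 110 in Control and at 170 to 289 in AdCKO. These distances are a description of 10 libraries.

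Summed markers of the cells that carry class II were also higher in AdCKO. In Control the macrophage sum ranked the mice as the members' sum did, at 760, 1435, 2394, 822 and 967 in replicates 1 to 5. In AdCKO these orders differed. Among AdCKO mice the macrophage sum was highest in replicate 2 (11609) and the members' sum in replicate 1 (9018). The pan-leukocyte sum was, like the members' sum, highest in AdCKO replicate 1 (1445). Macrophage markers were called higher for 11 of 12, led in level by Lyz2, where 25.6% of all tested genes were called higher. Fcgr1 among the 11 passed the minimum level only through AdCKO, so its call is no support. Cd163 was not called (log2 fold change -0.25, limma adjusted p = 0.421). The summed level of the 12 macrophage markers was 760 to 2394 in Control (median 967) and 8501 to 11609 in AdCKO (median 9787). Of the conventional dendritic cell markers, Itgax, Clec9a and Ccr7 were called higher but passed the minimum level only through AdCKO, so their calls are no support. The 8 markers had sums of 60.0 to 85.1 in Control (median 63.5) and 101 to 150 in AdCKO (median 124). The dendritic cell factor Zbtb46 itself had a log2 fold change of -0.31 (limma adjusted p = 0.0188), which became 0.15 at an equal total (0.214). Pan-leukocyte markers were called higher for 4 of 4, with sums of 84.6 to 281 and of 838 to 1445. The ratio of mean sums, AdCKO over Control, was 7.92 for macrophage, 8.18 for pan-leukocyte, 1.87 for dendritic cell and 3.16 for the class II members.

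Of 11 B cell markers measured, 4 were tested, 3 of them passing the minimum only through AdCKO, among these Cd22, which was called higher. Cd37, which passed in both groups, was called higher too, and Blk and Cr2 had a mean under 1. Their sum was 39.2 to 52.4 in Control and 93.9 to 140 in 4 AdCKO libraries, with 303 in AdCKO replicate 1. T cell markers were called for 0 of 4 tested by limma (2 higher at an unadjusted p under 0.05) and had sums of 48.6 to 83.7 in the same 4 AdCKO libraries. Lymph node markers were called for 0 of 3 tested by limma (2 higher at an unadjusted p under 0.05) and had sums of 23.5 to 32.2 in Control and of 30.3 to 61.5 in 4 AdCKO libraries, with 162 in AdCKO replicate 1. With the B and T cell marker level as a covariate, 6 of the 7 members were still called, with log2 fold changes of 1.54 for H2-Aa and Cd74 and 1.55 for H2-Ab1, and Ciita was not (0.61, limma adjusted p = 0.0300). The part of macrophages and dendritic cells in the members' rise was not tested. Adipocyte markers were called lower for 6 of 8 and higher for 1 (Lpl), and at an equal total in every library for 2 and 1.

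**Figure D4:**
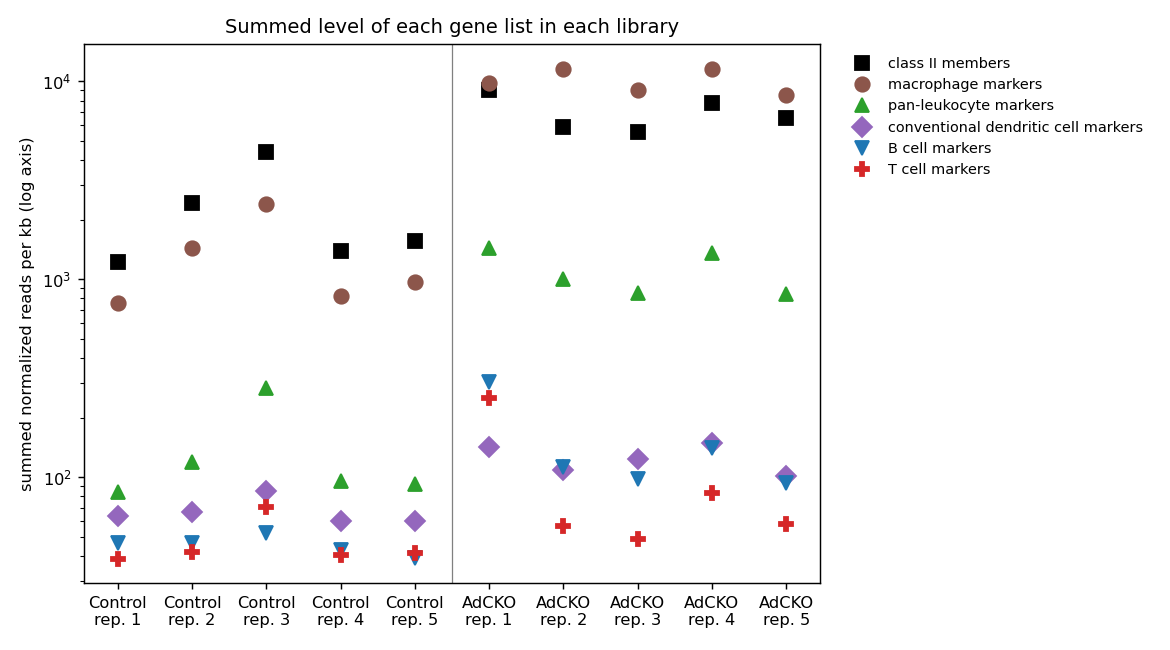
Summed normalized reads per kb (log axis) of the class II members and of 5 marker lists in each of the 10 libraries. In Control the class II sum lies above the macrophage sum, in AdCKO it lies below it, and AdCKO replicate 1 has the highest B and T cell sums at 303 and 251.

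Ratios of Cd74 to 4 general leukocyte genes and 3 class I genes were chosen after the values were seen and are given as a description, with no test. Its ratio to the leukocyte phosphatase Ptprc (CD45) was 62.3, 82.7, 66.0, 75.3 and 67.4 in Control and 29.2, 42.0, 34.3, 42.0 and 57.5 in AdCKO, with no overlap. Its ratio to the lysosomal membrane protein Laptm5 fell from 11.9 ± 1.52 to 4.26 ± 0.50, and to the integrin chain Itgb2 50.2 ± 12.0 and 13.4 ± 2.81 (SD, n = 5 mice each). The groups did not overlap in any of these 3 ratios. The ratio to Coro1a, an actin regulator of leukocytes, was 24.6 ± 5.40 and 20.0 ± 6.46 in Control and AdCKO, and overlapped.

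The ratio of Cd74 to the class I heavy chain H2-K1 lay between 0.348 and 0.482 in Control and between 0.507 and 0.735 in AdCKO, with no overlap. Its ratio to H2-D1 was 0.295 ± 0.04 and 0.360 ± 0.06 (SD, n = 5 each) and to the class I light chain B2m 0.128 ± 0.03 and 0.141 ± 0.03, and both overlapped.

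**Figure D5:**
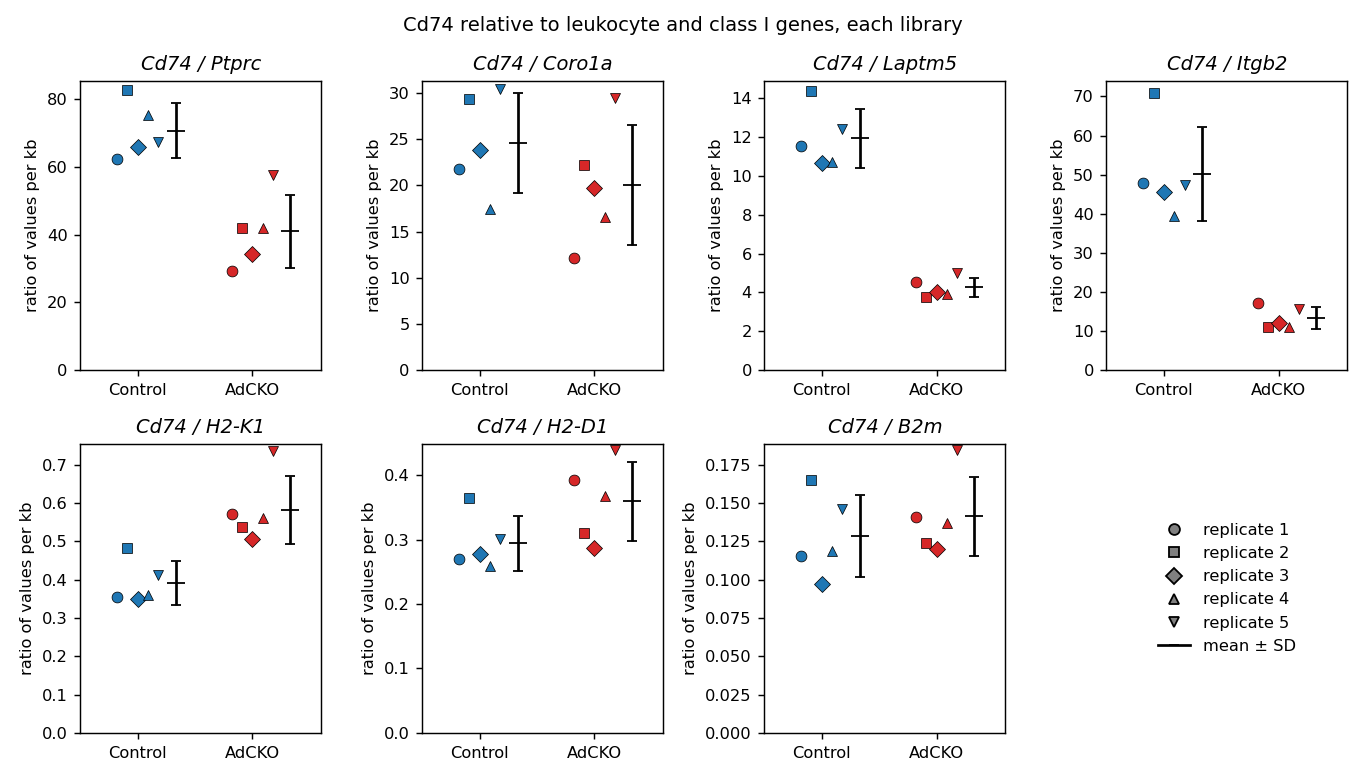
Ratio of Cd74 to each of 4 leukocyte genes and 3 class I genes, per kb, in the 5 Control (blue) and 5 AdCKO (red) libraries, with bars for mean ± SD. The groups are apart for Ptprc, Laptm5 and Itgb2 (lower in AdCKO) and for H2-K1 (higher in AdCKO), and overlap for the other 3.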

How the data were processed

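Polyadenylated iBAT RNA was sequenced with 1 library per mouse (5 Control, 5 AdCKO), and groups and replicate numbers came from the sample titles. The authors aligned reads with STAR to mm9, used iRNA-seq for exon counts and DESeq2 to normalize them. The deposited values are a signal, normalized reads per kb, for 15075 genes with 1 RefSeq transcript each, and they are not counts. No value is 0 and the smallest is 0.0532, so low values appear to be moderated, which would shrink the folds of low genes. The transformation is not named in the sources used here. Whether counting used the strand is not given in the sources used here. The authors' columns of fold changes and adjusted p-values, and 2 lists of called genes, were not used. How deeply each mouse was sequenced is unknown, and these values allow no counting interval.

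Values were used as deposited. Genes with a mean of at least 10 in either group (11244) were fitted on log2(value + 1) by limma (version 3.58.1, R 4.3.3, functions lmFit and eBayes, trend on). P-values were two-sided and adjusted by Benjamini-Hochberg over all of them, and the threshold of 0.01 and the minimum follow the paper's cutoffs. The fit was tested on simulated data. Single levels and ratios were compared by exact two-sided permutation over libraries (smallest p 0.0079). Deposited starts count from 0 and are given here counted from 1. Promoters came from RefSeq (GRCm38.p6), and the copies of H2-DMb were aligned from annotated transcripts on the files' build. Python 3.11.15 drew figures with matplotlib 3.10.9.

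The members and the 9 other lists (116 genes in all, 114 found) were chosen with earlier results of these data known. The text names all 7 members and, from each list, up to 4 genes with the smallest p in each direction, calls against the list, the 3 highest markers and those with a mean under 1, and the 5 genes nearest in pattern. The other pathway, class I and marker genes named were picked with their values in view. Separate values of 2 listed genes are not reported here. The labels give no pairing of mice by replicate number, and mice were treated as unpaired. Deviations of same-numbered libraries correlated at -0.27 to 0.10, which cannot show whether those mice were related. Alternatives were a pseudocount of 0.1 or 10, no minimum or a mean of at least 1, the same total in every library, quantile normalization, no trend or a robust trend, a replicate block, each library left out, Control replicate 3 and AdCKO replicate 1 left out together, B and T cell marker level as a covariate, and a threshold of 0.05.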

Additional observations from a re-analysis of the deposited data

Results flagged for a closer look

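Of 114 gene and group pairs examined (57 named genes), 29 had a highest or lowest library whose gap to the next exceeded Dixon's critical value for 5 samples. The critical value is set for about 1 in 20 among independent normal values. These genes share the same libraries and were partly picked by their values, so the count is a description. Control replicate 3 accounted for 15 and AdCKO replicate 1 for 11. Among the members, H2-DMb1 in Control replicate 3 (94.7, next 45.3) was such a value.

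In Control replicate 3 the other high values were Ctss at 123, H2-D1 at 5839 and Tap2 at 327 in the presentation lists. For leukocyte genes they were Ptprc at 24.6, Coro1a at 68.2, Laptm5 at 152 and Itgb2 at 35.6. For T cells they were Cd2 at 17.1, Lck at 11.0 and Cd3e at 12.3. For dendritic cells and macrophages they were Itgax at 8.30, Clec9a at 14.3, Ccr7 at 6.07 and Emr1 at 29.4.

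In AdCKO replicate 1 the high values were B cell genes, Cd22 at 26.3, Cd79a at 53.9, Cd79b at 35.7, Blk at 1.70 and Cr2 at 0.876, and T cell genes, Cd2 at 51.8, Lck at 46.1, Cd3e at 44.5 and Cd3g at 27.5. Ltb at 69.2 and Erap1 at 83.4 were also high there. The remaining values were Calr lowest in Control replicate 1 at 1078, March8 highest in AdCKO replicate 4 at 115 and Emr1 lowest in AdCKO replicate 5 at 69.5. What sets these libraries apart was not tested.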

How the results depend on the processing

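The 6 members other than Ciita stayed higher and past the threshold under every alternative run. Their log2 fold changes ran from 1.22 (H2-DMa) to 2.18 (H2-Ab1) with 1 library left out, and from 1.10 (H2-DMa) to 2.35 (Cd74) under the others. Ciita was called with each library left out (0.81 to 1.11) and lost its call under quantile normalization (0.57, limma adjusted p = 0.0336), the B and T cell covariate (0.61, 0.0300) and the replicate block (0.96, 0.0175), so 6 to 7 members were called higher and 0 lower. The causes were not tested.

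Of the other class II pathway genes, 13 to 15 were called higher and 1 to 2 lower with 1 library left out (2 without Control replicate 3, Control replicate 5 or AdCKO replicate 1). At an equal total per library 29 were higher and 0 lower, and the all-gene median moved to 0.46. The count lower was 2 under quantile normalization, 2 under the robust trend, 2 without Control replicate 3 and AdCKO replicate 1 together, 3 at a threshold of 0.05 and 0 under the replicate block. March8, called lower, turned to 0.22 at an equal total. The 22 called genes of the pathway lists otherwise kept their direction, and 6 of them lost a call or turned under some alternative. With the B and T cell covariate 12 class II pathway and 5 class I genes were called higher, the lowest counts. Class I genes called higher numbered 10 at an equal total, 6 to 12 with 1 library left out (12 without Control replicate 3) and 11 without both libraries. The replicate block is not an analysis of known pairs, since the labels give same-numbered libraries only a shared number (r from -0.27 to 0.10). Depth is unknown, so the limits of low genes such as Ciita cannot be given.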

Other observations

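Control replicate 3 differed from AdCKO in 2 of 3 immunoproteasome genes, a pattern noticed after the values were seen and given without a test. The immunoproteasome subunit Psmb8 stood at 602 in Control replicate 3, against 68.4 to 104 in the other Control libraries and 171 to 423 in AdCKO. Psmb9 was 380 there, against 61.8 to 106 in the other Control libraries and 153 to 275 in AdCKO. The other, Psmb10, was 188 there, within the AdCKO range of 158 to 224. For Psmb8 and Psmb9 the Control library exceeded every AdCKO library, whereas the classical class II chains, Cd74 and the H2-DM genes of the same library lay under every AdCKO library.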
